A study of Mus musculus with 14 samples.

Results

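The genes described here encode Polycomb and trithorax proteins and other enzymes that write, remove or bind marks on histones, the proteins around which DNA is wound. They were chosen by name, as a list of 39 symbols, and 38 of them were measured among 18194 genes in all. Ash1l was not analysed here. Expression was measured on 14 Affymetrix mouse arrays in 7 groups of 2. Cells were sorted from the bone marrow of B6/129 mice that carried Mx and were either wild type (WT, Tet2+/+) or Tet2-deleted (KO) littermates, with deletion induced by pIC, an inducer of interferon. Tet2 oxidises methylated cytosine in DNA. The sorted populations were LSK (cells without lineage markers that carry Sca1 and c-Kit, among them the blood stem cells), common myeloid progenitors (CMP) and granulocyte-macrophage progenitors (GMP), each from WT and from KO mice. LSK and CMP were taken 4 weeks after deletion, and the labels give no time for GMP. The last group was KO cells grown from CD150+ LSK cells and replated 5 times, for which a WT counterpart was not analysed here. Whether 2 arrays of 1 group stand for different mice is not stated, and p-values therefore measure the spread between these samples alone, which may be technical.

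Polycomb proteins work as 2 complexes. PRC2, with the enzyme Ezh1 or Ezh2 on a core of Eed and Suz12, methylates histone H3 at H3K27, and PRC1, built on Ring1 or Rnf2, puts ubiquitin on histone H2A and binds chromatin through Cbx proteins. Trithorax proteins of the Kmt2 family methylate the same histone at H3K4 and are known for keeping genes active against Polycomb. In blood cells these regulators are known for controlling Hox genes and the cell-cycle inhibitor Cdkn2a, and Asxl1, Ezh2 and Kmt2a are recurrently altered in human myeloid disease.

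Tet2 acts at CG dinucleotides, so their number in the promoters of the members is given first. Promoters were windows of 300 bases from RefSeq (GRCm38.p6), and 31 of the 38 members matched an entry, with 40 promoters, while Cbx2, Hdac1, Hdac3, Kdm5a, Kdm6b, Kat6a and Nsd1 did not. The members' promoters held a median of 28.5 CG dinucleotides, between 2 and 56, against 16.0 over 18110 promoters of the genes tested. The E2F letters TTTCCCGC, TTTGGCGC and TTTCGCGC, searched on both strands, occurred in 2 of the 40 promoters (Ezh2 and Suz12), or 5%, against 2.74% over the genes tested. Methylation at these sites was not analysed here. Printed below are the promoters of the 2 members with an entry that fell in replated cells in at least 2 comparisons (Ezh2 and Cbx8) and of the 2 that rose in at least 2 (Ep300 and Kmt2c), chosen after their values were seen, with every CG in capitals. The windows are chr6:47594981-47595280 (minus strand) for Ezh2, chr11:119040864-119041163 (minus) for Cbx8, chr15:81585964-81586263 (plus) for Ep300 and chr5:25498734-25499033 (minus) for Kmt2c.
Ezh2: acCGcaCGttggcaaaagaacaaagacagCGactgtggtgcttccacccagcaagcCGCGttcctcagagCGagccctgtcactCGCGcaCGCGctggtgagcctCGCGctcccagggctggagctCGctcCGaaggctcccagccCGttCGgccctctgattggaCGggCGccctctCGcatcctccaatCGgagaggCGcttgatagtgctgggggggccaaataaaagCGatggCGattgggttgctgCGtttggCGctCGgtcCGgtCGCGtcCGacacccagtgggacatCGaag
Cbx8: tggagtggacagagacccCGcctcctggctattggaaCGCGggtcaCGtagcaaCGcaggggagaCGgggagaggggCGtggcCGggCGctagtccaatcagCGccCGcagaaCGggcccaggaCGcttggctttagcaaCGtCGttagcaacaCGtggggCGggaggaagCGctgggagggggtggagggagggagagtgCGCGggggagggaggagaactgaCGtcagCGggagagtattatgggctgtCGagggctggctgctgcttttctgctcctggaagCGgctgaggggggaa
Ep300: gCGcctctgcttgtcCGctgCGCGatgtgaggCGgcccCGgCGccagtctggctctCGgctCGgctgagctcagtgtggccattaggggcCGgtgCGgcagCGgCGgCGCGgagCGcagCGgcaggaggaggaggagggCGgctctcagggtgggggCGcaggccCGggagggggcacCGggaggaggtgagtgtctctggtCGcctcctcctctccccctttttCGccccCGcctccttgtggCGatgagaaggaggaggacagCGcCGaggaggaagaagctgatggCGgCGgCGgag
Kmt2c: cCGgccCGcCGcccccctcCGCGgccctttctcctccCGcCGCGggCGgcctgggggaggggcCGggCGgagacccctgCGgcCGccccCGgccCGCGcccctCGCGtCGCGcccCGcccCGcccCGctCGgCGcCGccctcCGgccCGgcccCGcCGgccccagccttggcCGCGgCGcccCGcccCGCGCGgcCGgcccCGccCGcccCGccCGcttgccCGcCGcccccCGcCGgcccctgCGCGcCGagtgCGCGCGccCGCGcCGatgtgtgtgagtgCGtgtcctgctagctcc
The 4 windows held 31, 24, 30 and 56 CG dinucleotides in that order, and the window of Kmt2c had the most of any member.

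Values are RMA intensities on a linear scale. Group levels were obtained by averaging log2 values and converting the average back to an intensity. The highest of 27 bacterial control probe sets on an array, between 20.8 and 27.8, served as the floor of that array. Of the 38 members, 37 lay above the floor on all 14 arrays, and Cbx2 did so on 12. Tet2 itself, at a probe set whose place relative to the deleted part is not known here, had levels of 613 (LSK), 1256 (CMP) and 1569 (GMP) in WT cells and of 1261, 1977 and 2301 in the KO populations, so it does not check the labels. The Y-linked genes Uty and Kdm5d were above the floor in the WT and replated arrays and below it in all 6 sorted KO arrays. A genotype difference and a difference between the sexes of the donors therefore cannot be told apart in these data. Summed markers of mast cells and basophils (8 of 9 measured) lay between 6709 and 10600 on sorted arrays and between 71550 and 73050 on replated arrays. Of these markers 8, 6 and 6 were called higher in replated cells than in KO LSK, CMP and GMP, and 0, 0 and 1 lower. Mcpt8 was at 496 and 486 in replated cells against 857 and 1022 in KO GMP, and Hdc at 967 and 855 against 1438 and 1548. Gata2 alone, which is not confined to mast cells in this sum, was between 3687 and 7621 on sorted arrays. Neutrophil markers (6 of 6) summed to between 12020 and 20840 on sorted and to between 127 and 135 on replated arrays. The log2 difference between 3' and 5' Gapdh probe sets, a sign of RNA quality, was 0.58 to 0.69 on sorted and 0.72 to 0.81 on replated arrays, and that of b-actin 0.99 to 1.23 and 1.08 to 1.22. The summed LSK list (6 of 8 measured) was highest in LSK among the sorted groups (9629 to 11740, against 5525 to 8973 in CMP and GMP). The CMP and GMP list (7 of 7) summed to 19920 to 22930 in LSK, 31700 to 33620 in CMP and 47410 to 49720 in GMP, so it was above the floor in LSK too.

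Across the 6 sorted groups the members were about as steady as other genes. The range of a member's 6 group levels had a median of 0.60 on the log2 scale, against 0.56 over all genes and 0.69 over the 10004 genes above the floor on all arrays. The median SD between the arrays of a group was 0.27 for members and for those 10004 genes. The steadiest members were Kmt2d, an H3K4 methyltransferase, with a range of 0.15, Jarid2, a PRC2 cofactor, with 0.23, and Kdm2b, which recruits a PRC1 variant to CG-rich DNA, with 0.31. Kmt2d, for example, lay between 3336 and 4371 on the 14 arrays. The widest ranges belonged to the PRC1 subunits Phc1 (1.76) and Pcgf2 (1.66), the H3K9 methyltransferase Setdb1 (1.54) and the PRC1 subunit Cbx2 (1.26). Replicates differed most in KO LSK, where the median gap between the 2 arrays was 0.42 on the log2 scale and the gap of Phc2 was 2.72, from 141 to 928. In replated cells the median gap was 0.14.

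**Figure D1:**
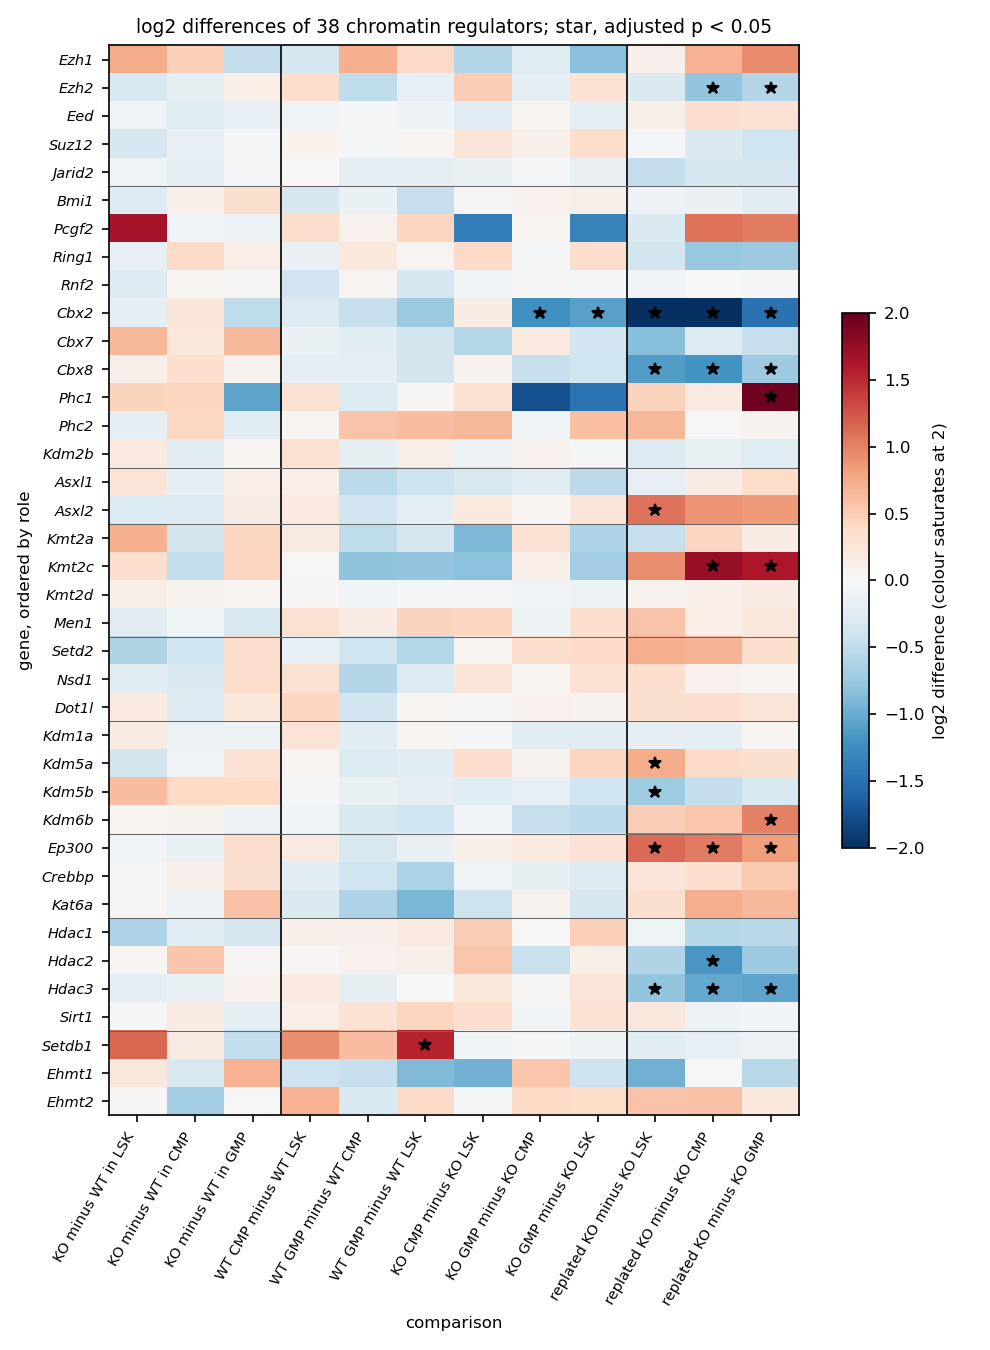
Heat map of log2 differences (colour, saturating at 2) of the 38 measured members, in rows ordered by role, in 12 comparisons, in columns. Stars mark an adjusted p below 0.05 (limma). The 3 KO minus WT columns hold no star, the 6 columns of differentiation steps hold 3, and the 3 columns of replated cells hold the other 22.

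The first question was how these regulators differed between Tet2-deleted and wild-type progenitors. None of the 38 members passed the test in KO against WT averaged over the 3 populations (limma, adjusted over all genes), where 0.308% of all genes did, and 5 members had an unadjusted p below 0.05, as did 9.11% of all genes. The members' log2 differences had a median of 0.0067 and ran from -0.39 to 0.52, against a median of 0.027 over all genes. None passed by limma in LSK (0.264% of all genes), CMP (0.121%) or GMP (0.0934%). At an unadjusted p below 0.05 there were 4, 0 and 2 members in these populations, against 9.91%, 6.13% and 4.43% of all genes. The lowest adjusted p among the members was 0.227 in the average and 0.0752, 0.826 and 1 in the 3 populations.

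Within PRC2, averaged KO minus WT differences ran from -0.17 for Suz12 to 0.25 for Ezh1. Suz12 was at 3617 and 3597 in WT LSK and at 2740 and 2961 in KO LSK, without overlap, a log2 difference of -0.34 ± 0.13 (SE, limma adjusted p = 0.427). Ezh2 differed by -0.12 in the average, and Asxl1, which works with the deubiquitinase BAP1 and is often mutated together with TET2 in patients, by 0.06.

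The demethylase Kdm5b, which removes methyl groups from H3K4, had the lowest p in the averaged comparison. Its intensities were 758 and 933 in WT LSK and 1468 and 1127 in KO LSK, 828 and 826 in WT CMP and 945 and 1262 in KO CMP, and 676 and 819 in WT GMP and 1066 and 899 in KO GMP. At its brightest probe set KO arrays lay above WT arrays in all 3 populations. The averaged difference of 0.47 ± 0.12 (SE) did not pass after adjustment (limma adjusted p = 0.227). Averaged differences at the other probe sets of Kdm5b were 0.42, 0.44 and -0.27. The last of these probe sets gave -1.75 in LSK (limma adjusted p = 0.115). The deacetylase Hdac1 differed by -0.39 ± 0.16 (limma adjusted p = 0.511), with overlap between genotypes in CMP.

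In LSK the largest differences were those of Pcgf2 and Setdb1. Pcgf2, also called Mel18, was at 37.2 and 33.9 in WT LSK and at 181 and 69.6 in KO LSK, and between 40.1 and 55.6 on the 8 sorted CMP and GMP arrays. The KO LSK arrays were thus the highest of the sorted arrays for Pcgf2, and they lay far apart from each other. The log2 difference in LSK was 1.66 ± 0.37 (SE, limma adjusted p = 0.122). Setdb1 was at 111 and 96.1 in WT LSK and at 278 and 188 in KO LSK, a difference of 1.15 ± 0.21 (SE, limma adjusted p = 0.0752), and its WT LSK arrays were the lowest of all 14. The other probe sets of Setdb1 went the other way in LSK, by -0.74 and -0.97 (limma adjusted p = 0.738 and 0.358). Without KO LSK replicate 2, the lower array for both genes, the LSK difference was 2.35 for Pcgf2 and 1.43 for Setdb1. The averaged difference of Pcgf2 was then 0.73. These values rest on 1 KO LSK array. Without KO CMP replicate 1 the CMP difference of Hdac2 was 1.05, against 0.55 with all arrays. It then rests on KO CMP replicate 2, at 5232, while KO CMP replicate 1 was at 2606 and the WT CMP arrays at 2552 and 2488. The probe set read for Hdac2 can hybridise with several transcripts, and its other probe sets gave -0.23 and 0.05 in CMP with all arrays.

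The difference of the KO effect between populations was tested directly. None of the 38 members passed by limma between CMP and LSK (0.022% of all genes), between GMP and LSK (0.0055%) or between GMP and CMP (0%). At an unadjusted p below 0.05 there were 3, 2 and 1 members, against 6.69%, 5.96% and 3.73% of all genes. Setdb1 had the lowest p, and its KO minus WT difference was lower in GMP than in LSK, by a log2 value of -1.64 ± 0.30 (SE, limma adjusted p = 0.25). At the other probe sets of Setdb1, KO minus WT was -0.74 and -0.97 in LSK and -0.46 and -0.47 in GMP. The GMP difference was thus not the lower one there. Without KO LSK replicate 2, which left 1 KO LSK array, the value for Pcgf2 was -2.41 between CMP and LSK and -2.47 between GMP and LSK. That for Setdb1 was -1.92 between GMP and LSK.

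The second comparison followed the members from LSK through CMP to GMP, within WT and within KO arrays. In WT cells none of the 38 passed from LSK to CMP (1.53% of all genes) or from CMP to GMP (0.89%), by limma. At an unadjusted p below 0.05 there were 3 and 4 members, against 11.9% and 9.62% of all genes. From LSK to GMP 1 rose and 0 fell, where 3.22% of all genes rose and 7.09% were called in either direction. In KO cells none passed from LSK to CMP (1.15% of all genes, 4 members at unadjusted p below 0.05 by limma against 13.9% of all genes). From CMP to GMP 1 fell, where 0.407% of all genes fell and 0.769% were called, and from LSK to GMP 1 fell, where 3.76% fell and 7.18% were called. Without KO LSK replicate 1 or 2, Setdb1 also passed from LSK to CMP in WT cells. Its difference stayed at 0.93 and only the estimate of the spread changed, as no WT array was left out. In KO cells the LSK to CMP difference was -2.06 for Pcgf2 without KO LSK replicate 2 and 1.06 for Hdac2 without KO CMP replicate 1. The LSK to GMP difference of Ezh1 was -1.46 without KO LSK replicate 1. Without KO LSK replicate 2 that difference was -2.03 for Pcgf2 and 1.96 for Phc2. Each of these fits in KO cells left 1 array in a group compared.

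The gene that rose in WT cells was Setdb1, which methylates H3K9, a mark of silent chromatin. Its intensities were 111 and 96.1 in WT LSK, 217 and 177 in WT CMP and 338 and 264 in WT GMP, and the groups did not overlap. The rise from LSK to GMP was 1.54 ± 0.21 on the log2 scale (SE, limma adjusted p = 0.00266). In KO cells Setdb1 was at 278 and 188 in LSK, 210 and 230 in CMP and 220 and 205 in GMP, a LSK to GMP difference of -0.10 ± 0.21 (limma adjusted p = 0.835). The WT call was lost when the fit held the compared groups alone (adjusted p = 0.0719). The gene's other probe sets gave 1.16 (limma adjusted p = 0.326) and -0.35 (adjusted p = 0.669) in WT, neither past the threshold. In KO the same probe sets gave 1.44 (limma adjusted p = 0.204) and 0.14 (adjusted p = 0.879). A rise in WT without a rise in KO was thus seen at the brightest probe set alone.

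The gene that fell in KO cells was Cbx2, the PRC1 subunit that compacts chromatin. It was at 83.4 and 93.3 in KO LSK, 113 and 84.3 in KO CMP and 45.0 and 38.6 in KO GMP, and the GMP arrays lay below all others of the sorted groups. The log2 difference was -1.08 ± 0.22 from LSK to GMP (SE, limma adjusted p = 0.0186) and -1.23 ± 0.22 from CMP to GMP (limma adjusted p = 0.042). In WT cells Cbx2 was at 104 and 95.8 in LSK, 91.0 and 74.1 in CMP and 59.6 and 59.3 in GMP, with a LSK to GMP difference of -0.75 ± 0.22 (limma adjusted p = 0.0777). The difference between these spans was -0.33 ± 0.31 (limma adjusted p = 0.94). The CMP to GMP call held without either replated array but was lost without each other array in turn (adjusted p = 0.0553 to 0.224), and the LSK to GMP call was lost without KO LSK replicate 2 (0.0739) or the KO GMP arrays, replicate 1 (0.0685) or 2 (0.121).

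No other member passed in these steps, though some differences of Phc1 and Pcgf2 were larger in size than those of Cbx2. The acetyltransferases Crebbp and Kat6a differed from LSK to GMP by -0.63 ± 0.19 and -0.91 ± 0.32 in WT (limma adjusted p = 0.0901 and 0.135) and by -0.28 and -0.34 in KO. Without WT GMP replicate 1, which left 1 WT GMP array, the WT difference of Crebbp was -0.93. The PRC1 subunit Phc1 was at 104 and 204 in KO LSK, 235 and 133 in KO CMP and 60.1 and 45.5 in KO GMP, with a LSK to GMP difference of -1.47 ± 0.50 (limma adjusted p = 0.121) and a CMP to GMP difference of -1.76 ± 0.50 (adjusted p = 0.207). In WT cells its LSK to GMP difference was 0.04. Pcgf2 differed by -1.34 ± 0.37 from LSK to GMP in KO cells (limma adjusted p = 0.0632), and by -1.37 ± 0.37 from LSK to CMP (adjusted p = 0.133). Kmt2a, the trithorax enzyme known from leukaemia fusions, was at 2270 and 1541 in KO LSK and at 1238 and 811 in KO CMP (-0.90, limma adjusted p = 0.29), without overlap.

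**Figure D2:**
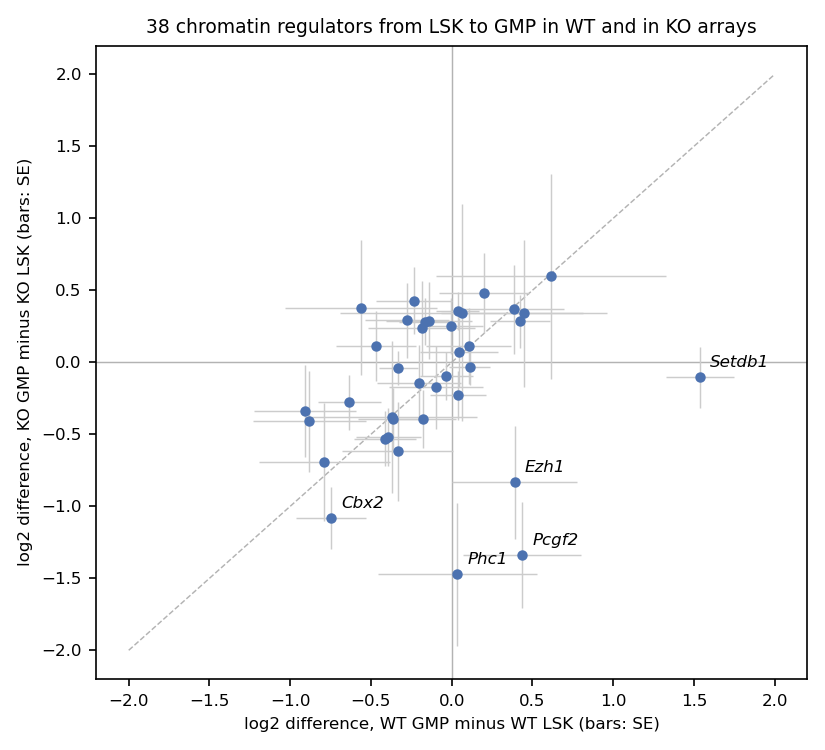
LSK to GMP log2 difference of the 38 members in WT arrays (x axis) and in KO arrays (y axis), 1 dot per gene, with bars for the SE and a dashed line where both are equal. Most genes lie within 1 of 0 on both axes, Setdb1 lies at 1.54 in WT and -0.10 in KO, and Cbx2 lies below 0 on both. Each gene is shown at its brightest probe set. The other probe sets of Setdb1 gave 1.16 and -0.35 in WT and 1.44 and 0.14 in KO.

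The third comparison set replated KO cells against each sorted KO population. These comparisons share the 2 replated arrays, and culture, the cell types present and the sex of the donors all differ with them, so their effects cannot be told apart. In bulk RNA, fewer cells of a type and less RNA per cell cannot be told apart either. Against KO LSK 3 members rose and 4 fell of 38, where 10.8% of all genes rose and 14.2% fell (25.1% in all). Against KO CMP 2 rose and 5 fell (10.3% and 14.1% of all genes, 24.4% in all). Against KO GMP 4 rose and 4 fell (10.2% and 15.2%, 25.3% in all). The members' counts were thus not above that background. Their median differences were -0.052, 0.046 and 0.053, against 0.0068, -0.071 and -0.063 over all genes. Against LSK the count was 2 without KO LSK replicate 1, 4 without replated replicate 1 and 2 without replated replicate 2. Against CMP it was 3 without replated replicate 2, and against GMP it was 5 without the first KO GMP array (replicate 1) and 3 without the other or without either replated array.

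The largest fall among the members was that of Cbx2. It was at 12.2 and 18.1 in replated cells, below the floor on both arrays, and between 38.6 and 113 on the sorted KO arrays. Its level was at least 4.06-fold lower than in KO LSK, 4.49-fold lower than in KO CMP and 1.92-fold lower than in KO GMP (limma adjusted p = 2.53e-05, 1.86e-05 and 0.00079). These 3 calls held without each of the 14 arrays in turn. The gene's other probe set was below the floor in the groups compared.

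Cbx8, another Cbx subunit and the gene next to Cbx2 on chromosome 11 (RefSeq, GRCm38.p6), fell as well. It was at 41.9 and 44.6 in replated cells, against 105 and 84.4 in KO LSK, 87.2 and 111 in KO CMP and 73.4 and 70.0 in KO GMP, and the replated arrays were the lowest of all 14. The log2 differences were -1.12 ± 0.21, -1.19 ± 0.21 and -0.73 ± 0.21 (limma adjusted p = 0.00401, 0.00296 and 0.0335). The last was lost without each of the KO GMP and replated arrays in turn (adjusted p = 0.105 to 0.151) and after quantile normalization (-0.46, adjusted p = 0.188), and the other probe set of Cbx8 passed in none of the 3. The next measured neighbour, Tbc1d16, also fell (-3.37, -2.45 and -2.12, limma adjusted p = 0.000446, 0.00296 and 0.00619). Beyond it Ccdc40 passed against LSK and GMP (-1.22 and -0.95, limma adjusted p = 0.0156 and 0.0453), and Rbfox3 and Engase on the other side passed in none, genes looked up after the values of Cbx2 and Cbx8 were seen. Cbx7, the Cbx protein known for stem cell self-renewal, was at 43.8 and 43.1 against 78.5 and 78.0 in KO LSK, a difference of -0.85 ± 0.53 (limma adjusted p = 0.307).

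Of the core PRC2 genes, Ezh2 fell. It was at 1192 and 1117 in replated cells, 1217 and 1650 in KO LSK, 2067 and 1903 in KO CMP and 1677 and 1773 in KO GMP, so that the replated arrays were the lowest of all, close to 1 of the LSK arrays. The log2 differences were -0.30 ± 0.16 against LSK (limma adjusted p = 0.242), -0.78 ± 0.16 against CMP (adjusted p = 0.0066) and -0.58 ± 0.16 against GMP (adjusted p = 0.0274). The CMP call was lost without replated replicate 2 (adjusted p = 0.0504), and the GMP call without each of the KO GMP and replated arrays in turn (adjusted p = 0.0828 to 0.139). Its paralog Ezh1 differed the other way, by 0.11, 0.70 and 0.94 (limma adjusted p = 0.887, 0.259 and 0.119). Eed, with differences of 0.12, 0.34 and 0.29, and Suz12, with -0.04, -0.29 and -0.39, did not pass. Against GMP, Ezh1 passed without either KO LSK array, and Suz12 (-0.39) without either KO CMP array. Neither group is in that comparison, so the differences stayed the same and only the estimate of the spread changed.

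The remaining PRC1 members and the ASXL genes gave fewer calls. Phc1 rose against KO GMP by 1.94 ± 0.50 (limma adjusted p = 0.0174), from 60.1 and 45.5 to 193 and 209, and the replated arrays lay within the range of KO CMP. Bmi1, the PRC1 subunit known for keeping stem cells from senescence, was at 1212 and 1326 in replated cells and between 1133 and 1691 on sorted KO arrays, with differences of -0.11, -0.14 and -0.22 (limma adjusted p = 0.809, 0.778 and 0.614). Pcgf2 was at 92.1 and 91.1 in replated cells, above all sorted CMP and GMP arrays, and differed from KO CMP by 1.08 ± 0.37 and from KO GMP by 1.04 ± 0.37 (limma adjusted p = 0.0612 and 0.0671). Both differences passed after quantile normalization (1.38 and 1.35, limma adjusted p = 0.0277 and 0.0293). They also passed without either KO LSK array. That group is in neither comparison, so the differences stayed the same and only the estimate of the spread changed. Without KO LSK replicate 2 the difference of Pcgf2 from LSK was -0.98, on 1 KO LSK array. Phc2, a polyhomeotic subunit, was at 520 and 632 in replated cells, between its KO LSK arrays of 141 and 928, and passed against LSK without KO LSK replicate 2, the high array (2.02, limma adjusted p = 0.00852). Ring1, the other E3 ligase of PRC1, was at 129 and 80.3 in replated cells, within the sorted range of 63.4 to 274, and its replicates lay far apart in most groups. Rnf2, a catalytic subunit of PRC1, differed by between -0.07 and 0.0030. Asxl1 differed by -0.16, 0.16 and 0.37 at its brightest probe set and was not called. Its other probe sets gave 1.98, 1.66 and 1.16 (limma adjusted p = 0.0161, 0.0366 and 0.132) and 0.43, 1.36 and 1.23 (adjusted p = 0.422, 0.014 and 0.0215). With the mean of all probe sets Asxl1 passed against CMP and GMP (1.06 and 0.92, limma adjusted p = 0.0214 and 0.0392). Asxl2 was at 1387 and 1936 in replated cells and between 633 and 966 on sorted KO arrays, a rise of 1.09 ± 0.33 against KO LSK (limma adjusted p = 0.0386), and 3 of its 4 other probe sets rose at unadjusted p below 0.05. The call of Asxl2 was lost without KO LSK replicate 1 (0.82, limma adjusted p = 0.203), replated replicate 1 (adjusted p = 0.0604) or replated replicate 2 (0.229), and without each KO CMP or KO GMP array in turn (0.0531 to 0.0559). The call of Phc1 was lost without KO GMP replicate 2 (limma adjusted p = 0.105) or either replated array (0.0727 and 0.0904).

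Among the trithorax members, Kmt2c rose. This H3K4 methyltransferase of enhancers was at 2424 and 2419 in replated cells, against 938 and 1723 in KO LSK, 1075 and 485 in KO CMP and 894 and 693 in KO GMP. The replated arrays were the highest of all 14. The rise was 1.75 ± 0.41 against CMP and 1.62 ± 0.41 against GMP (limma adjusted p = 0.012 and 0.0163), and the difference from LSK was 0.93 ± 0.41 (adjusted p = 0.14). Of its 3 other probe sets, 2 passed an unadjusted p of 0.05 against CMP and 3 against GMP, all in the same direction. Without KO CMP replicate 2 or either replated array the CMP call was lost (limma adjusted p = 0.063 to 0.0812), as was the GMP call without KO GMP replicate 2 or either replated array (0.0778 to 0.103). Kmt2d, its closest paralog, was at 4355 and 4300 in replated cells and differed by 0.07, 0.10 and 0.16. Kmt2a and Men1, the cofactor that tethers it to chromatin, passed in none of the 3 comparisons, with differences of -0.46 to 0.44 and of 0.13 to 0.56.

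**Figure D3:**
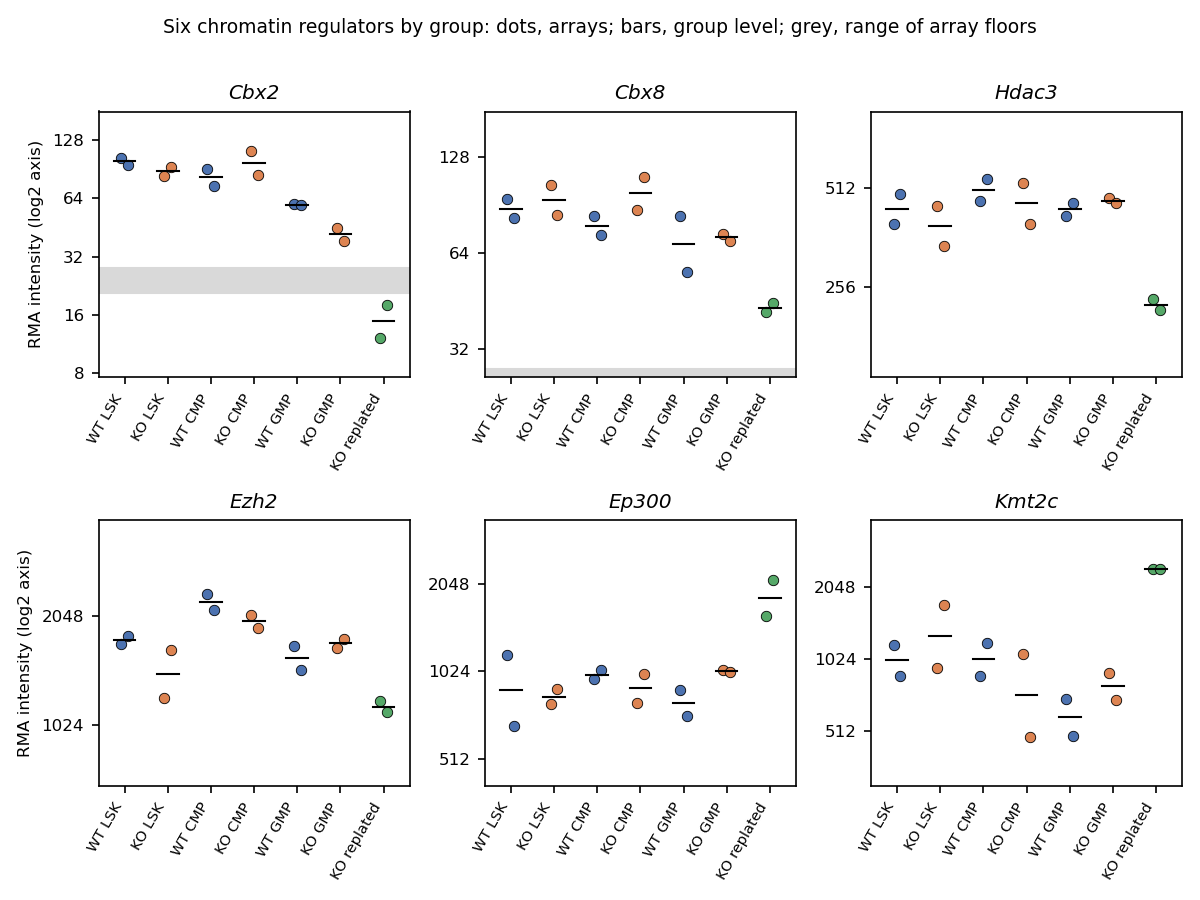
RMA intensity (log2 axis) of Cbx2, Cbx8, Hdac3, Ezh2, Ep300 and Kmt2c on all 14 arrays by group. Dots are arrays, bars the group level and grey the range of array floors. Replated arrays are the lowest for Cbx2, Cbx8, Hdac3 and Ezh2 and the highest for Ep300 and Kmt2c.

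The acetyltransferase Ep300, a coactivator that marks active enhancers, rose in all 3 comparisons. It was at 1585 and 2118 in replated cells and between 789 and 1033 on the sorted KO arrays, without overlap. The log2 differences were 1.13, 1.03 and 0.84, each ± 0.26, against LSK, CMP and GMP (limma adjusted p = 0.0118, 0.0185 and 0.0445). Without replated replicate 2 all 3 calls were lost (limma adjusted p = 0.0984, 0.138 and 0.257), as was the LSK call without KO LSK replicate 1 (0.0616) and the CMP call without KO CMP replicate 1 (0.107). The GMP call held without either WT LSK array but was lost without each other array in turn (0.0513 to 0.257). Its paralog Crebbp differed by 0.24, 0.33 and 0.52 (limma adjusted p = 0.435, 0.277 and 0.0812). Crebbp passed against GMP without either WT GMP array, which left the difference the same and changed only the estimate of the spread.

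The deacetylase Hdac3, the catalytic part of the NCoR complex, fell in all 3 comparisons. It was at 235 and 218 in replated cells and between 342 and 547 on the 12 sorted arrays of either genotype, without overlap. The log2 differences were -0.79, -1.02 and -1.05, each ± 0.19 (limma adjusted p = 0.0144, 0.00389 and 0.00319), or 1.74-, 2.03- and 2.07-fold lower. Its only probe set is of a kind that can hybridise with several transcripts. The CMP and GMP calls held without each of the 14 arrays, and the LSK call was lost without KO LSK replicate 1 (limma adjusted p = 0.0943) or either replated array (0.0539 and 0.0897) and after quantile normalization (-0.57, adjusted p = 0.054). Hdac2 was at 1630 and 1669 in replated cells and fell against CMP (-1.16 ± 0.26, limma adjusted p = 0.0102), a group whose arrays were 2606 and 5232. Without either replated array that call was lost (adjusted p = 0.0589 and 0.0541), and without KO CMP replicate 2, the high array, the difference was -0.66. Without either KO CMP array Hdac2 also passed against LSK (-0.61) and GMP (-0.72). KO CMP is in neither comparison, so these differences stayed the same and only the estimate of the spread changed. Hdac1 (-0.08, -0.57 and -0.56) and Sirt1 (0.23, -0.11 and -0.06) did not pass in any of the 3.

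The demethylases were called in different comparisons, apart from Kdm1a (LSD1), which was at 1518 and 1420 in replated cells and differed by -0.20, -0.18 and 0.03. Kdm6b, which removes methyl groups from H3K27 and so opposes PRC2, was at 6419 and 5818 in replated cells, the highest of all arrays, against 3118 and 2934 in KO GMP. It rose against GMP by 1.01 ± 0.20 (limma adjusted p = 0.00479), and differed from LSK and CMP by 0.49 and 0.56 (adjusted p = 0.114 and 0.0777). Without KO LSK replicate 2 its difference from LSK was 0.74. Against CMP it passed without either KO LSK array, which left that difference the same and changed only the estimate of the spread. Its chosen probe set can hybridise with related transcripts, and with such probe sets left out the difference was 0.26 (adjusted p = 0.885). Against KO LSK the H3K4 demethylases Kdm5a rose by 0.74 ± 0.23 (limma adjusted p = 0.0454), from 424 and 412 to 592 and 824, and Kdm5b fell by 0.72 ± 0.20 (adjusted p = 0.0281), from 1468 and 1127 to 803 and 764. The replated level of Kdm5b was near that of WT LSK, at 758 and 933. The Kdm5a call held without 3 of the 14 arrays (either WT LSK array or replated replicate 1), and otherwise its adjusted p was 0.0501 to 0.288. The Kdm5b call was lost without KO LSK replicate 1 (0.161) or either replated array (0.0943 and 0.133), and its chosen probe set can hybridise with related transcripts, without which the difference was -0.29 (adjusted p = 0.483).

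The methyltransferases of H3K36, H3K79 and H3K9 gave no call in replated cells at their brightest probe sets. Other probe sets of Nsd1 gave -1.51, -0.30 and -0.38, and -1.04, -0.44 and -0.77, against LSK, CMP and GMP. A further probe set of Nsd1 gave 1.16, 1.04 and 2.53 (limma adjusted p = 0.164, 0.224 and 0.00731). Setd2, Nsd1 and Dot1l differed by 0.04 to 0.72 over the 3 comparisons, and Setdb1 by -0.22, -0.16 and -0.11, with replated arrays at 207 and 186. Ehmt2, which works as a pair with Ehmt1, was at 249 and 269 and differed by 0.57, 0.59 and 0.21. Ehmt1 was at 546 and 491 against 1357 and 747 in KO LSK (-0.96), and passed without KO LSK replicate 2 (-1.39, limma adjusted p = 0.0261). Over all 25 calls of members, their other probe sets gave 32 values, of which 10 moved the same way at unadjusted p below 0.05, 15 did not pass, 7 were below the floor in the groups compared and 0 moved the other way past that p.

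**Figure D4:**
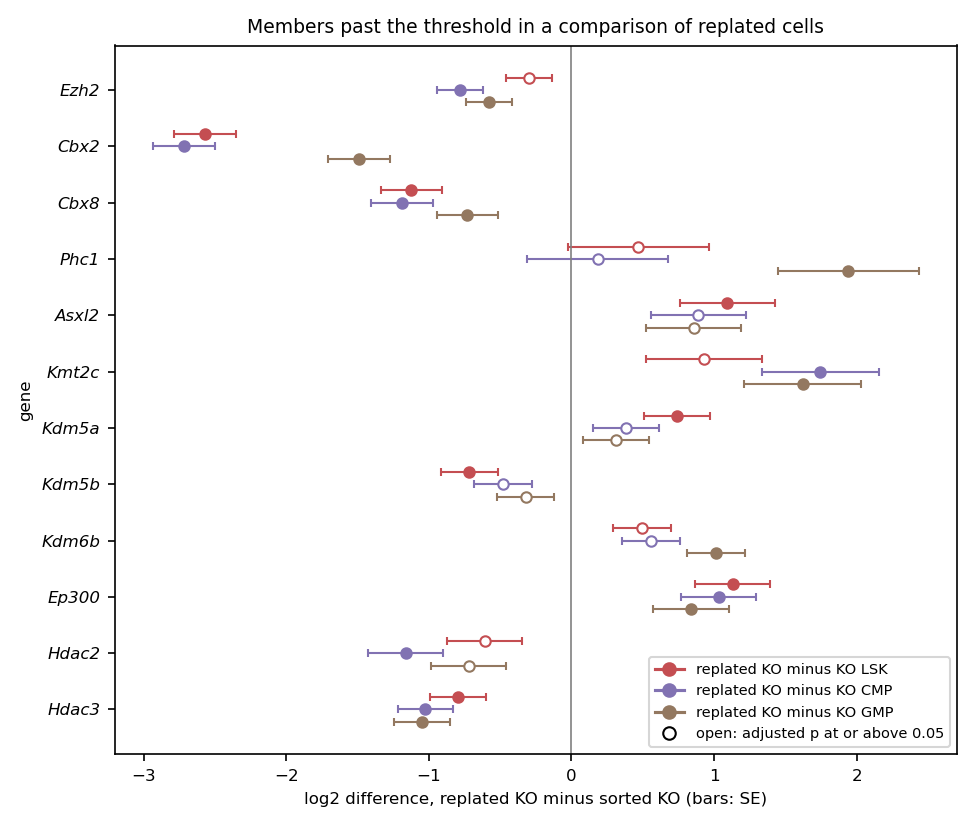
Log2 difference (x axis, bars are SE) of replated KO cells from KO LSK, KO CMP and KO GMP, in colours, for the 12 members called in any of these comparisons. Filled dots have a limma adjusted p below 0.05. Cbx2, Cbx8 and Hdac3 lie below 0 and Ep300 above 0 with filled dots in all 3 comparisons.

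Other genes of these complexes gave a measure of how the wider machinery stood. The lists held 112 further chromatin genes that were measured. In the averaged KO against WT comparison 0 of them passed by limma, against 0.308% of all genes. At an unadjusted p below 0.05 there were 13, against 9.11% of all genes. Against KO LSK 13 rose and 21 fell, against KO CMP 16 and 22, and against KO GMP 19 and 22, where 25.1%, 24.4% and 25.3% of all genes were called. Of 8 further PRC2 genes, Rbbp7, a histone chaperone, fell (-1.07, -1.10 and -1.09, limma adjusted p = 0.000177, 0.000157 and 0.000158) and Mtf2, which brings PRC2 to CG islands, as well (-0.78, -0.98 and -0.99, adjusted p = 0.0129, 0.00391 and 0.00336). Phf1, of the same family as Mtf2, rose by 1.40 against LSK (limma adjusted p = 0.0048) and was at least 2.05- and 2.02-fold higher than in CMP and GMP.

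Of 15 further PRC1 and BAP1 genes, Pcgf5 was at 336 and 652 in replated cells and between 2550 and 3238 on sorted KO arrays, with log2 differences of -2.63, -2.57 and -2.47 (limma adjusted p = 9.46e-05, 0.000114 and 0.000136). Scml2 was below the floor in replated cells and at least 5.06-, 5.77- and 7.19-fold lower (limma adjusted p = 0.000589, 0.000448 and 0.000281). Sfmbt1, of the same list, lay higher in replated cells, at 1193 and 1161 against 293 to 808 on sorted KO arrays. Dpy30, a shared subunit of the H3K4 methyltransferases, fell (-1.68, -2.03 and -2.11, limma adjusted p = 6.17e-05, 1.8e-05 and 1.3e-05). It was 1 of 2, 4 and 2 genes that fell among 19, where 14.2%, 14.1% and 15.2% of all genes fell. Among the 19, Setd7 and Ncoa6 lay higher in replated cells, at 2729 and 3308 and at 317 and 315. Their sorted KO arrays were between 1270 and 1938 and between 74.3 and 251. Prdm16, needed by blood stem cells, was below the floor in replated cells and at least 65.8-, 26.0- and 12.5-fold lower (adjusted p = 5.39e-05, 0.000224 and 0.000765). Of 20 further demethylases 5, 7 and 6 rose and 1, 1 and 2 fell, where among all genes 10.8%, 10.3% and 10.2% rose and 14.2%, 14.1% and 15.2% fell. Among them was Kdm4c, which rose by 1.31, 1.54 and 1.34 (limma adjusted p = 0.0204, 0.00957 and 0.018).

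Genes known to be held down by Polycomb in blood cells did not move in 1 direction. Of 12 measured, 3 rose and 4 fell against KO LSK, 3 rose and 4 fell against CMP, and 3 rose and 5 fell against GMP, where 10.8%, 10.3% and 10.2% of all genes rose and 14.2%, 14.1% and 15.2% fell. Cdkn2a, which encodes cell-cycle inhibitors and is a textbook PRC1 target, was at 140 and 106 in replated cells and below the floor on all 12 sorted arrays. It was at least 5.66-, 4.85- and 4.77-fold higher than in KO LSK, CMP and GMP (limma adjusted p = 1.48e-05, 1.82e-05 and 1.69e-05). The inhibitor Cdkn1a was at 1607 and 1525 in replated cells and between 95.6 and 155 on sorted KO arrays, a rise of 3.74, 3.65 and 3.67 (limma adjusted p = 0.00045, 0.000523 and 0.000479). Id2 was at 6508 and 7299 in replated cells and between 163 and 763 on sorted KO arrays. Ebf1 was below the floor in replated cells and at least 40.3-, 4.10- and 9.49-fold lower than in KO LSK, CMP and GMP (limma adjusted p = 4.21e-05, 0.00953 and 0.000793).

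Of the 5 Hox genes on the list of genes known to be held down by Polycomb, Hoxa9 and Hoxa10 lay below the floor in replated cells. The other 3 did not. Hoxa9 was at 6.91 and 5.31 in replated cells, below the floor, and at 1553 and 1640 in KO LSK, 677 and 687 in KO CMP and 419 and 396 in KO GMP. Its level was at least 73.5-, 31.4- and 18.8-fold lower than in those groups (limma adjusted p = 7.61e-09, 2.39e-08 and 5.43e-08). Hoxa10 was below the floor in replated cells too, and at least 93.3- and 30.1-fold lower than in KO LSK and KO CMP (adjusted p = 4.13e-05 and 0.000195). Hoxa7 was at 41.1 and 42.4 in replated cells, above the floor, and differed by -0.62, -0.87 and -0.71 (adjusted p = 0.053, 0.0116 and 0.0302). Hoxb4 was at 50.9 and 34.3 and differed by -1.23, -0.28 and -0.97 (adjusted p = 0.0105, 0.572 and 0.0317), and Hoxa5 passed in none of the 3 comparisons (-0.57, -0.29 and -0.09). In sorted cells Hoxa9 fell from LSK to GMP (-0.97 in WT and -1.97 in KO, adjusted p = 0.0236 and 0.00108). Markers of mature and immature myeloid cells moved with these values: 4 of 7 CMP and GMP markers, among them Mpo at 14.1 and 14.2, were below the floor in replated cells, and Cma1, a mast cell protease, was at 15290 and 15570. Their part in the changes of the regulators was not tested.

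Histone demethylases on the sex chromosomes were read separately, since the sorted KO arrays lacked Y-linked expression. Kdm5d, the Y-linked counterpart of Kdm5c, was between 491 and 866 on WT arrays and between 5.25 and 14.9 on sorted KO arrays. Uty, the Y-linked counterpart of Kdm6a, was between 86.0 and 131 on WT arrays and between 6.64 and 9.36 on sorted KO arrays. Kdm5d was at least 33.8-, 23.2- and 24.2-fold lower in KO than in WT LSK, CMP and GMP (limma adjusted p = 0.000177, 0.000489 and 0.00079), and Uty at least 5.73-, 4.28- and 3.91-fold lower (adjusted p = 0.000177, 0.000166 and 0.000169). The X-linked Kdm6a and Kdm5c differed by 0.58 ± 0.24 and 0.14 ± 0.10 (limma adjusted p = 0.506 and 0.721). In replated cells Kdm5d was at 503 and 821 and Uty at 177 and 299, and Kdm5c fell against LSK and CMP (-0.85 and -0.59, limma adjusted p = 0.00657 and 0.0402).

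**Figure D5:**
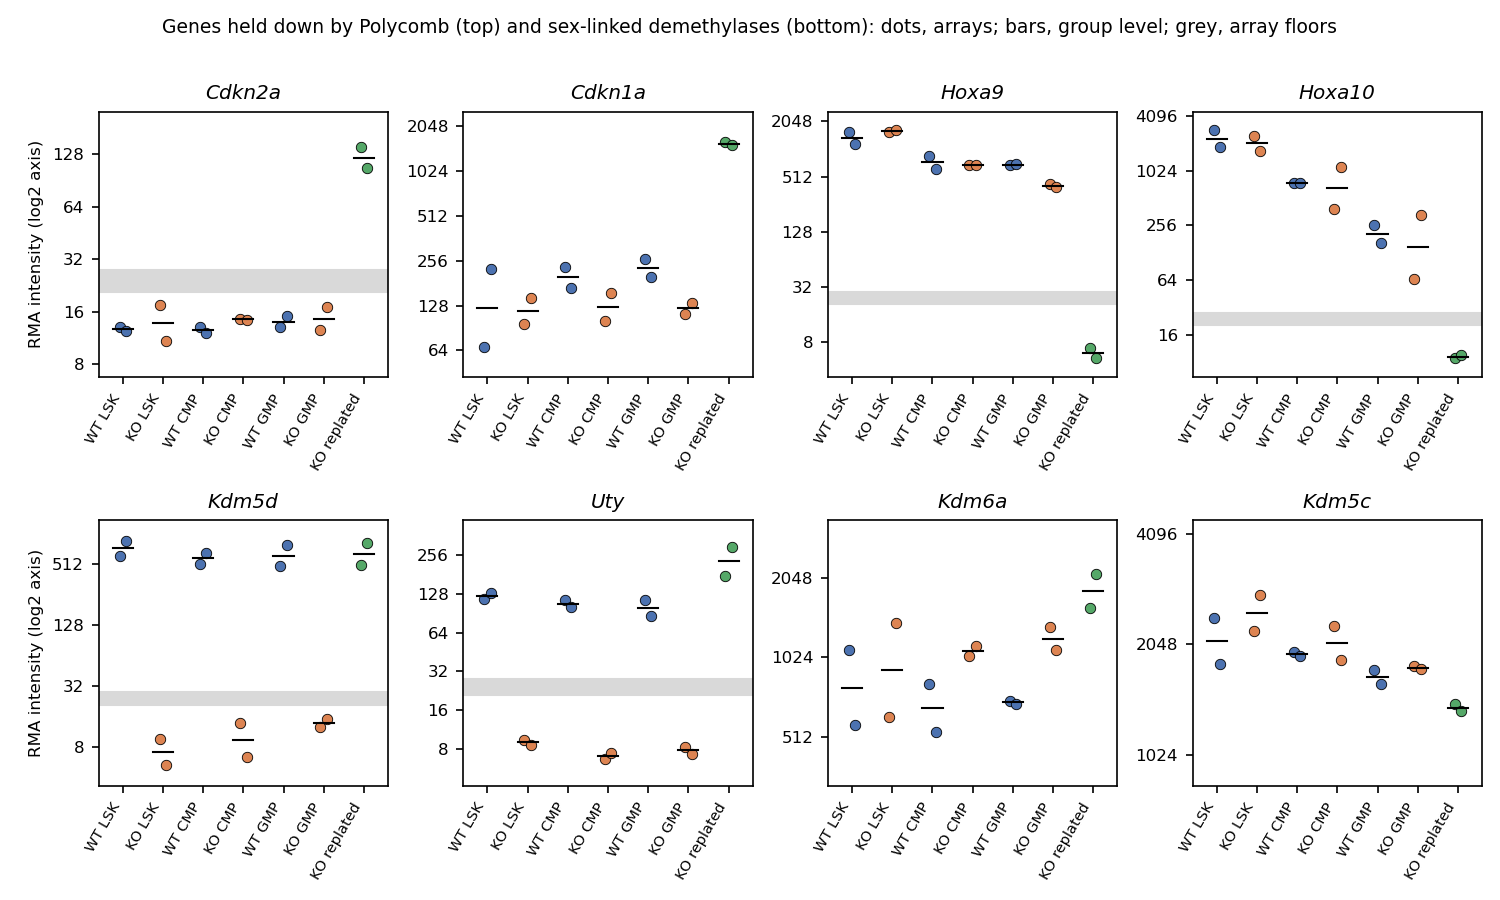
RMA intensity (log2 axis) by group of Cdkn2a, Cdkn1a, Hoxa9 and Hoxa10, which Polycomb is known to hold down, and of the demethylase genes Kdm5d and Uty (Y-linked) and Kdm6a and Kdm5c (X-linked). Dots are arrays, bars the group level and grey the range of floors. Cdkn2a rises above the floor in replated cells alone, Hoxa9 and Hoxa10 fall below it there, and Kdm5d and Uty are below it in the 6 sorted KO arrays.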

How the data were processed

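The authors' deposited values are 1 intensity per probe set and array, on a linear scale, made with RMA according to the submitters' processing notes. The RMA version is not given in the sources used here. RNA (5 ng) was amplified before labelling, per the labels' protocols, which can widen the spread of dim genes. Here log2 of the deposited intensity was taken. Of 45101 probe sets, 34958 had 1 gene in GEO's platform annotation, 932 several and 9211 were not listed, and each gene was read from its brightest probe set (mean log2 over all arrays). All 14 arrays, with medians of 31.16 to 32.98, entered 1 limma model (limma 3.58.1, R 4.3.3, 7 residual degrees of freedom) with a mean per group. P-values were two-sided and Benjamini-Hochberg adjusted over 18194 genes, with a threshold of 0.05. The code was tested on simulated data. A fold against a group with all arrays at or below the floor is a lower bound, computed with that group at its floor. Each of the 38 measured members is given with values. Some genes of the further lists were named, mostly those with a small p. Every Hox gene of the further lists was named, whatever its p, and other Hox genes were not analysed here. Members and lists were chosen with earlier results of these data known. With 2 arrays a group, their number limits the precision. Where 1 array was left out, its group stood on the other array alone and added nothing to the estimate of the spread. A call gained that way in a comparison of that group rests on 1 array there. In other comparisons such a fit left the log2 difference the same and changed only the estimate of the spread. Slide and scan batches were not analysed here.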

Additional observations from a re-analysis of the deposited data

How the results depend on the processing

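Adding the replicate number as a block (replicate block) changed 3 counts: KO against WT in LSK and WT CMP against LSK went from 0 to 1 called member (Setdb1 in both, limma adjusted p = 0.047 and 0.0413), and KO GMP against CMP from 1 to 0. Same-numbered arrays did not deviate together (r = -0.103 to 0.10 over 21 group pairs). Such a weak correlation cannot show whether they shared a mouse or a sort. Fitting the compared groups alone gave 0 for WT GMP against LSK, KO GMP against CMP and KO GMP against LSK, and 4 for replated cells against KO LSK. A spread that follows intensity gave 2 and 0 for WT GMP against LSK and KO GMP against CMP, raising values to the floor gave 2 for the former, and testing all probe sets gave 0 for the latter. The mean of all probe sets of a gene gave 1 for KO against WT in LSK, 3 for WT GMP against LSK and 0 for KO GMP against CMP. Leaving out 1 array gave 0 to 1 for KO against WT on average and in CMP, 0 to 2 in LSK and 0 in GMP, 0 to 1 for WT CMP against LSK, KO CMP against LSK and KO GMP against CMP, 1 to 2 for WT GMP against LSK, 0 to 2 for KO GMP against LSK, 2 to 10, 3 to 9 and 3 to 9 for replated cells against LSK, CMP and GMP, and 0 to 1 and 0 to 2 for the KO effect between CMP and LSK and between GMP and LSK. Of the 25 calls, no alternative turned a direction, and 275 of 350 values with 1 array left out kept the call. Of the 25, the mean of all probe sets kept 16, fitting the compared groups alone 17, testing all probe sets 21, the block and the spread trend 22 each, quantile normalization 23, and leaving out dim genes or raising values to the floor 25. Without x and s probe sets 20 of 22 were kept. With the LSK arrays left out, an alternative chosen after seeing the data, the averaged KO against WT count was 0. The cause of these shifts was not tested. Probe sets near the floor, such as those of Cbx2 in replated cells, give only a bound.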
